A study of Mus musculus with 36 samples.

Results

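The genes described here are 10 enzymes of triglyceride synthesis in mouse liver: Gpam, Agpat2, Agpat3, the lipins Lpin1, Lpin2 and Lpin3, Dgat1, Dgat2, Mogat1 and Mogat2. They were taken as every array probe whose gene name is one of these symbols, which gave 25 of the 56605 non-control probes and 10 of the 37074 gene names on the array. Of these probes, 22 passed the filter on dim signal (6 or more of the 36 arrays had to show the spot well above background), and 21 also had a value on every array and were fitted. Each gene is described by its probe with the highest mean signal, which was well above background on all 36 arrays for all 10 genes, so the filter left out no gene. The other probes are given beside it.

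Triglyceride is built on glycerol 3-phosphate. A glycerol-3-phosphate acyltransferase such as Gpam adds the first fatty acid, an acylglycerol-phosphate acyltransferase such as Agpat2 or Agpat3 adds the next and yields phosphatidic acid, and a lipin removes the phosphate to leave diacylglycerol. Dgat1 or Dgat2 adds the last fatty acid, while Mogat1 and Mogat2 reach diacylglycerol from monoacylglycerol, the route known best from the intestine. In liver, insulin is known to raise the lipogenic genes through the transcription factor SREBP-1c, the product of Srebf1, and Lpin1 is known to rise with fasting and glucocorticoids.

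RNA of whole liver was read on 1-colour arrays in 36 samples from male mice aged 11 weeks, untreated and fed chow without restriction, in 6 groups of 6 samples. IRLKO mice (IRhep-/-) had lost the insulin receptor in hepatocytes by a tamoxifen-inducible deletion: loxP sites flank the fourth exon of the receptor gene (IRlox/lox), and a C57BL/6J line supplies Cre in the liver from the transthyretin promoter (TTR-CreTam). IRLWT mice (IRhep+/+) were their controls. Livers were taken at Zeitgeber time (ZT) 8, 12 or 16, in hours after lights-on, with lights off at ZT12, so ZT8 fell in the light and ZT16 in the dark. The labels give neither the time of tamoxifen nor whether the IRLWT mice carried Cre or loxP sites. The labels number the replicates of a group but do not say in words that each is a separate mouse, so p-values measure the spread between these samples. In whole liver, fewer cells of a type and less RNA per cell cannot be told apart.

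Signals are given on a log2 scale relative to the 75th percentile of all non-control spots of the same array, so 0 is that percentile and a difference of 1 is a doubling. Differences are log2 ratios of IRLKO to IRLWT, or of a later to an earlier time, from limma with the wash batch in the model, with a standard error (SE). A gene was called at a Benjamini-Hochberg adjusted p under 0.05 over all 34678 fitted probes. Levels of different probes are not compared, because each probe has its own brightness.

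The targeted gene was checked first. Insr signal in IRLWT was -1.81 to -1.01 (median -1.40) at ZT8, then -1.86 to -1.44 (median -1.58) at ZT12 and -1.85 to -1.24 (median -1.70) by ZT16, and in IRLKO it was -3.54 to -2.94 (median -3.05) at ZT8, then -3.95 to -3.29 (median -3.44) at ZT12 and -3.75 to -3.08 (median -3.18) by ZT16. The groups did not overlap at any time, and IRLKO signal was 29.3%, 27.2% and 31.8% of IRLWT (adjusted p 1.4e-11, 2.8e-12 and 3.6e-11). With normexp background correction the log2 ratio was -0.98, -1.02 and -0.92. A second, dimmer Insr probe had IRLKO signal of 51.9%, 36.2% and 66.2% of IRLWT (adjusted p 3.6e-04, 6.1e-07 and 0.0171), and was above background in 4, 1 and 4 of the 6 IRLKO samples. Its groups overlapped at ZT16, where 1 IRLKO sample lay above all IRLWT samples (exact permutation p 0.0584). No annotation of the files' build was used here, so whether these probes lie in the deleted exon is not given. Ttr, whose promoter drives Cre, itself had log2 ratios of -1.12, -1.02 and -0.97 (adjusted p 1.8e-12, 8.8e-12 and 1.9e-11). The 75th percentile of raw intensity lay between 311 and 525 over the arrays, and 53.7% to 63.1% of spots were well above background. IRLKO ZT8 replicate 3 stood apart, with a mean correlation of 0.973 with the other arrays of its group, against 0.982 to 0.990 for the other 35 arrays. Calls on the 10 genes that change without it are given both ways.

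At every time 6 of the 10 genes were called between genotypes, and nearly all were lower in IRLKO. At ZT8, Gpam, Agpat2, Lpin3, Dgat2 and Mogat1 fell and Agpat3 rose. At ZT12, Gpam, Agpat2, Lpin3, Dgat2, Mogat1 and Mogat2 fell. At ZT16, Gpam, Agpat2, Lpin1, Lpin2, Dgat2 and Mogat1 fell. So Gpam, Agpat2, Dgat2 and Mogat1 were lower at all 3 times, and Dgat1 was called at none. Counts of genes called and lower were 5, 6 and 6 of 10, where 18.5%, 22.4% and 19.8% of all 22916 genes were called and lower. Counts called and higher were 1, 0 and 0 of 10, against 16.5%, 19.2% and 19.6% of all genes. The 6 samples of each genotype did not overlap for 4, 4 and 3 of the 10 genes, against 15.5%, 21.4% and 19.2% of all genes. The median log2 ratio of the 10 genes was -0.74, -0.79 and -0.64, and that of all genes was 0.01, -0.02 and 0.00. Every called ratio of these genes had the same sign within each of the 3 wash batches. A wash batch held only 1 to 3 samples of a group, the same samples as in the fit, so this is no replication. The share of all genes with such a match of sign was not computed.

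**Figure D1:**
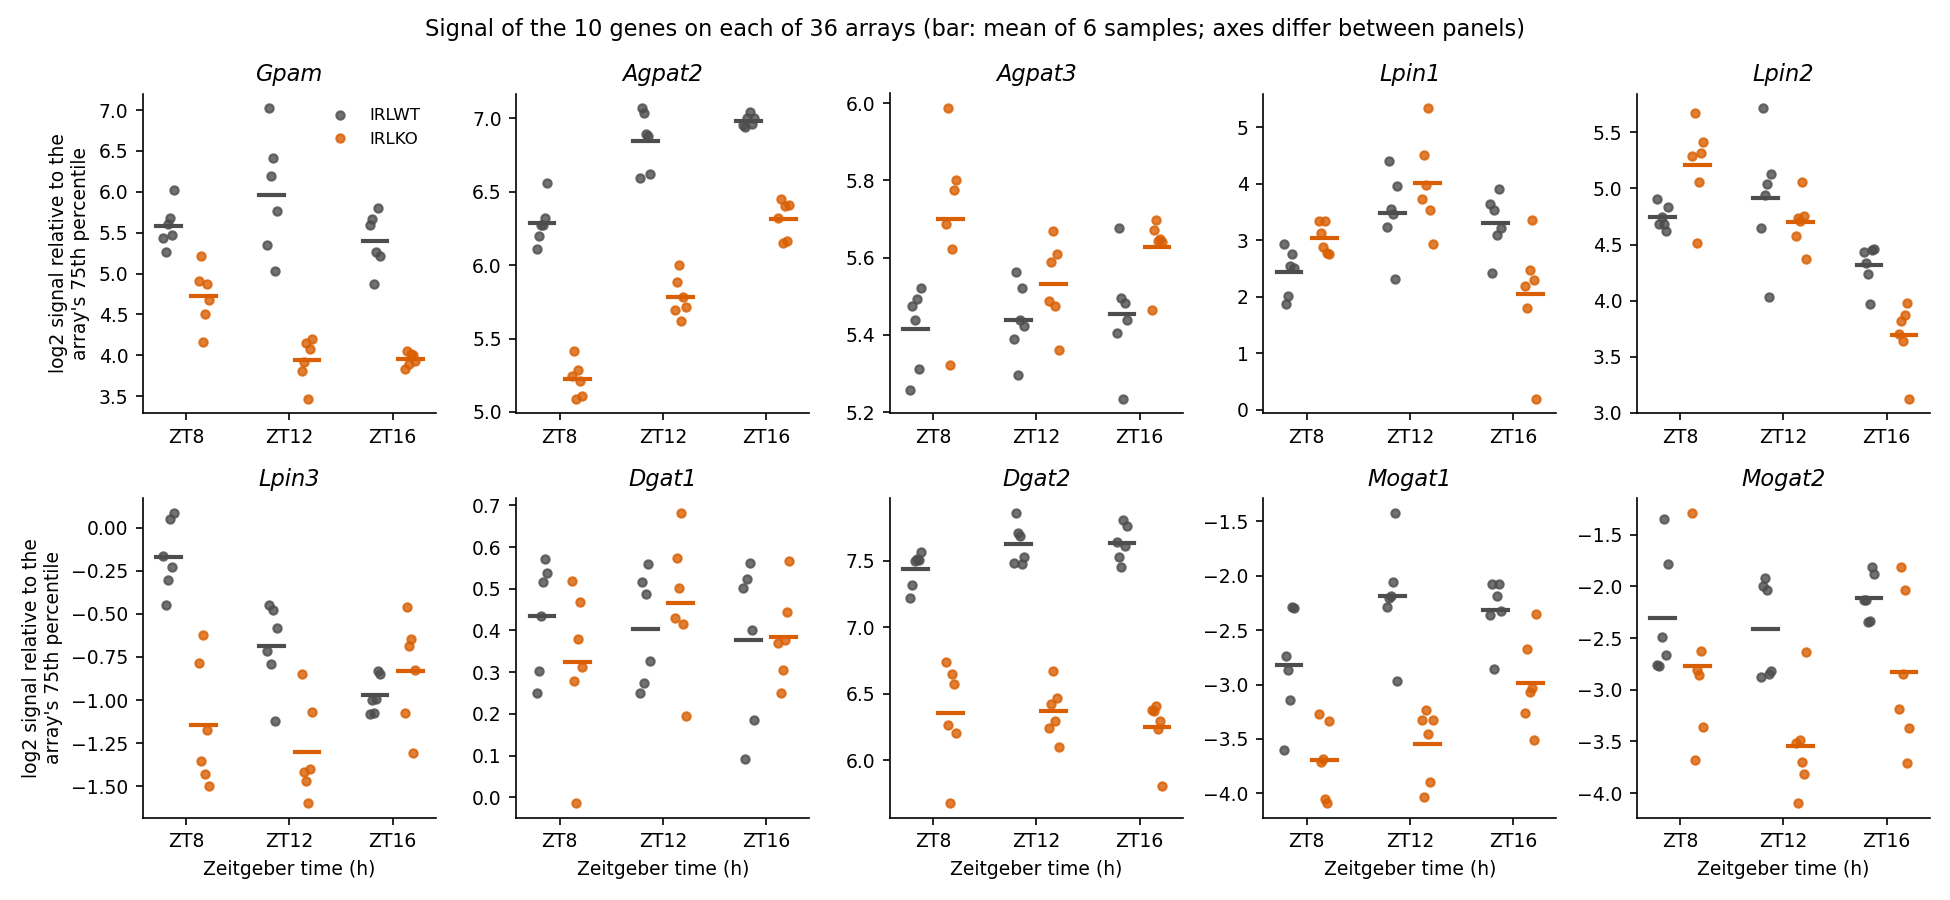
Signal of the brightest probe of each gene on each of the 36 arrays (vertical axis, log2 relative to the array's 75th percentile, scaled separately for each gene) at ZT8, ZT12 and ZT16; grey points are IRLWT, orange points IRLKO, and bars the mean of 6 samples. For Gpam, Agpat2 and Dgat2 the 2 genotypes do not overlap at any time, while for Dgat1 they overlap at all 3.

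Gpam, the mitochondrial enzyme of the first acylation, had the largest fall of the 10 genes at ZT12. Its probe lies at chr19:55142203-55142262, minus strand in build mm9. IRLWT signal was 5.27 to 6.02 (median 5.54) at ZT8, then 5.04 to 7.02 (median 5.98) at ZT12 and 4.87 to 5.80 (median 5.43) by ZT16. IRLKO signal was 4.16 to 5.22 (median 4.77) at ZT8, then 3.47 to 4.20 (median 4.00) at ZT12 and 3.83 to 4.05 (median 3.97) by ZT16. Every IRLKO sample lay below every IRLWT sample at each time. IRLWT samples were spread widely at ZT12, from replicate 5 at the bottom to replicate 2 at the top, whereas the IRLKO samples at ZT16 lay close together. The log2 ratio was -0.91 ± 0.21 (ZT8), -1.97 ± 0.21 (ZT12) and -1.40 ± 0.21 (ZT16), which left 53.2%, 25.5% and 37.9% of the IRLWT signal (adjusted p 0.00135, 1.5e-08 and 5.1e-06). Within the 3 wash batches taken separately, the ratio ran from -1.15 to -0.651, from -2.20 to -1.79 and from -1.54 to -1.30. A second Gpam probe (chr19:55145403-55145462, minus strand) followed the first with a correlation of 0.979 over the 36 arrays and gave ratios of -1.11, -2.56 and -2.06, all called. Wherever 6 against 6 samples do not overlap, the two-sided exact permutation test gives its smallest possible p, 0.00216.

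A promoter window of Gpam is shown because insulin acts on lipogenic genes through promoter elements, and Gpam was the member with the largest ratio. RefSeq (GRCm38.p6) gave upstream windows of 250 bases for 7 of the 10 genes, 11 windows in all; Dgat1, Dgat2 and Mogat2 were not matched. They were searched on both strands for 4 motifs: the E-box CACGTG, the sterol regulatory element TCACNCCAC, the CCAAT box (CCAAT or, on the other strand, ATTGG) and the FoxO element GTAAACA. Another Gpam window, at chr19:55099478-55099727, minus strand, held no match to any of the 4 and is not shown. The window at chr19:55127239-55127488, minus strand, read 5′ to 3′ up to the base before the start, holds a CCAAT box 74 to 70 bases before the start, in capitals.
Gpam: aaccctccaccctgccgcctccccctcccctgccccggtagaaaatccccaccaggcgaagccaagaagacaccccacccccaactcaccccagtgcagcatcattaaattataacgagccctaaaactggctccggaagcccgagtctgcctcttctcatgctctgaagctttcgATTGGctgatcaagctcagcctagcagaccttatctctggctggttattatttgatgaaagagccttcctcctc

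The CCAAT box was in 33.8% of all 32851 windows of this length in the table, the E-box in 6.02%, the FoxO element in 3.17% and the sterol regulatory element in 1.05%. None of the 11 windows held the sterol regulatory element in these letters. The 5 genes Agpat2, Agpat3, Lpin1, Lpin3 and Mogat1 had windows without a match to any of the 4. A match is only a match of letters, and no match says only that these letters are not in this window.

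Agpat2, the acyltransferase whose loss causes lipodystrophy, fell to about the same share of control at ZT8 and ZT12 and by less at ZT16. IRLWT signal (probe at chr2:26448610-26448669, minus strand) was 6.11 to 6.56 (median 6.27) at ZT8, then 6.59 to 7.07 (median 6.89) at ZT12 and 6.94 to 7.05 (median 6.98) by ZT16. IRLKO signal was 5.09 to 5.41 (median 5.23) at ZT8, then 5.62 to 6.00 (median 5.75) at ZT12 and 6.15 to 6.45 (median 6.36) by ZT16. Here too all 6 IRLKO samples lay below all 6 IRLWT samples at each time. The log2 ratio was -1.07 ± 0.09 (ZT8), -1.06 ± 0.09 (ZT12) and -0.66 ± 0.09 (ZT16), or 47.6%, 48.0% and 63.3% of IRLWT (adjusted p 6.4e-11, 6.1e-11 and 4.0e-07). Signal rose with time in both genotypes: in IRLWT by 0.56 from ZT8 to ZT12 (adjusted p 2.8e-05), and in IRLKO by 0.57 (4.5e-05) and then by 0.53 from ZT12 to ZT16 (9.6e-05). Within wash batches the ratio ran from -1.20 to -0.976, from -1.19 to -0.899 and from -0.735 to -0.558. The IRLKO samples at ZT16 lay within the range of the IRLWT samples at ZT8. A second probe next to it, correlated at 0.964 over the arrays, had ratios of -1.29, -1.19 and -0.93, all called. Agpat3, another enzyme of this step (probe at chr10:77736356-77736415, minus strand), had IRLWT signal of 5.26 to 5.52 (median 5.46) at ZT8, then 5.30 to 5.56 (median 5.43) at ZT12 and 5.24 to 5.68 (median 5.46) by ZT16. Its IRLKO signal was 5.32 to 5.99 (median 5.73) at ZT8, then 5.36 to 5.67 (median 5.54) at ZT12 and 5.46 to 5.70 (median 5.64) by ZT16. Its log2 ratio was 0.28 ± 0.08 (ZT8), 0.10 ± 0.08 (ZT12) and 0.18 ± 0.09 (ZT16), and only the ZT8 value was called (adjusted p 0.0119, 0.375 and 0.104). At ZT8 5 of the 6 IRLKO samples lay above all IRLWT samples, and the groups overlapped at all 3 times. The ZT8 call was lost without IRLKO ZT8 replicate 2 (0.21, adjusted p 0.0508), with the arrays scaled to their median (0.21, 0.125) and with only those groups fitted (0.27, 0.111), and a second Agpat3 probe, correlated at 0.390, gave 0.08, -0.13 and -0.06 with none called. The ZT16 ratio passed with normexp correction (0.22, adjusted p 0.0271), quantile normalization (0.27, 0.00202) and in the authors' processed values (0.27, 0.00248), and the ZT12 ratio with quantile normalization (0.20, 0.0200).

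**Figure D2:**
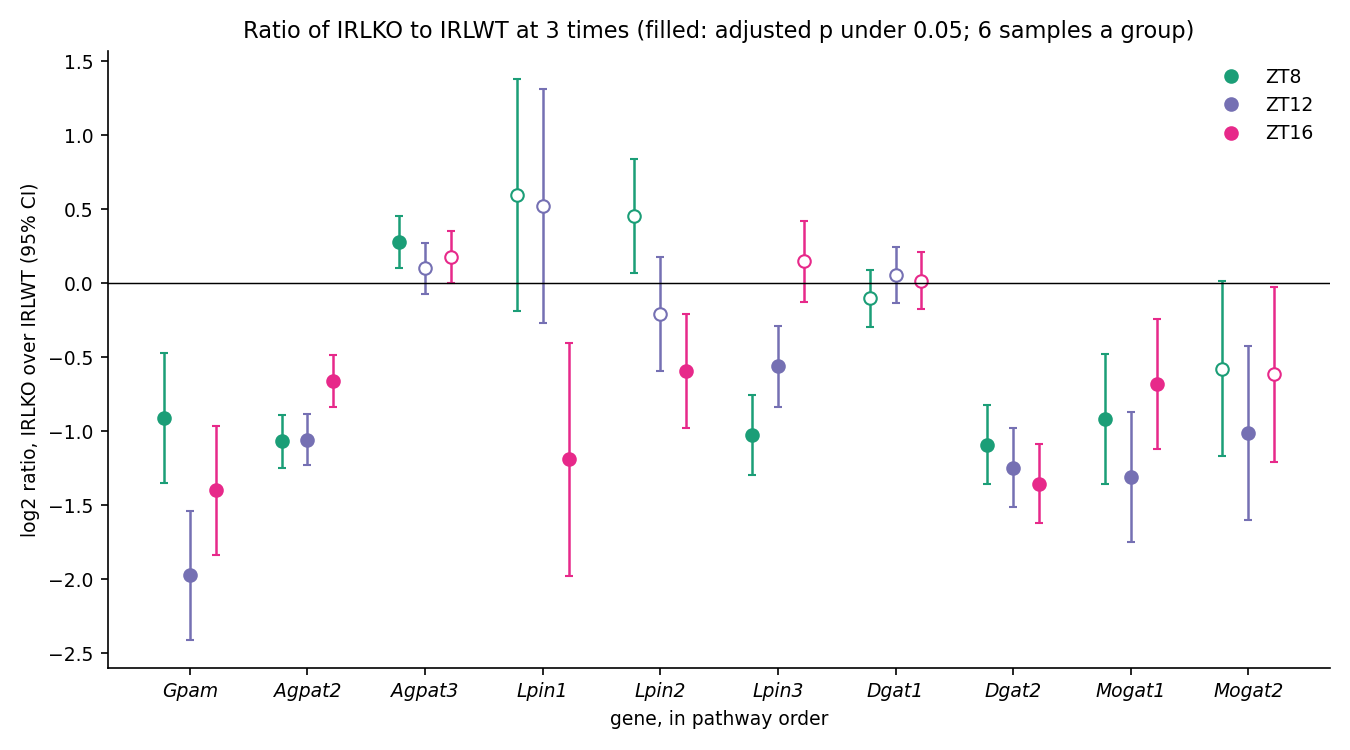
Log2 ratio of IRLKO to IRLWT (vertical axis) for the brightest probe of each of the 10 genes (horizontal axis, in pathway order) at ZT8, ZT12 and ZT16; bars are 95% confidence intervals from the fit, and filled points have an adjusted p under 0.05. Gpam, Agpat2, Dgat2 and Mogat1 lie below 0 at all 3 times, and Lpin3 moves from -1.03 at ZT8 to 0.15 at ZT16.

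The lipins are phosphatidate phosphatases. Lpin1, the lipin that also acts as a transcriptional coregulator, was lower in IRLKO at ZT16. IRLWT signal (probe at chr12:16543023-16543082, minus strand) was 1.86 to 2.92 (median 2.52) at ZT8, then 2.31 to 4.40 (median 3.51) at ZT12 and 2.42 to 3.91 (median 3.37) by ZT16. IRLKO signal was 2.74 to 3.33 (median 3.00) at ZT8, then 2.93 to 5.34 (median 3.85) at ZT12 and 0.19 to 3.36 (median 2.24) by ZT16. The genotypes overlapped at every time, and at ZT16 4 of the 6 IRLKO samples lay below all IRLWT samples, with replicate 6 far below the rest. In the fit the log2 ratio was 0.60 ± 0.39 (ZT8), 0.52 ± 0.39 (ZT12) and -1.19 ± 0.39 (ZT16); the fall at ZT16, to 43.8% of IRLWT, was called (adjusted p 0.246, 0.300 and 0.0150). At ZT8 the exact permutation test of the 6 against 6 samples gave a two-sided p of 0.0173 before any adjustment, while limma did not call it. Within wash batches the ZT16 ratio ran from -1.88 to -0.564 and the ZT12 ratio from -1.25 to 1.53. The ZT16 call was lost without IRLKO ZT16 replicate 6 (-0.87, adjusted p 0.0537) and with only the groups compared in the fit (-1.14, 0.0696). The other 3 Lpin1 probes correlated with the first at 0.982, 0.884 and 0.828 and gave ZT16 ratios of -1.43, -0.78 and -0.67, of which the first 2 were called.

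Lpin2, a lipin known to be expressed strongly in liver, had a ratio that fell from ZT8 to ZT16. IRLWT signal (probe at chr17:71598998-71599057, plus strand) was 4.62 to 4.91 (median 4.71) at ZT8, then 4.03 to 5.72 (median 4.99) at ZT12 and 3.97 to 4.46 (median 4.38) by ZT16. IRLKO signal was 4.51 to 5.67 (median 5.30) at ZT8, then 4.37 to 5.06 (median 4.72) at ZT12 and 3.13 to 3.98 (median 3.76) by ZT16. At ZT8 5 of the 6 IRLKO samples lay above all IRLWT samples and replicate 3, the array that stood apart, lay below them all. At ZT16 5 of the 6 IRLKO samples lay below all IRLWT samples. The log2 ratio was 0.45 ± 0.19 (ZT8), -0.21 ± 0.19 (ZT12) and -0.59 ± 0.19 (ZT16), and the ZT16 value alone was called (adjusted p 0.0619, 0.408 and 0.0132). Without IRLKO ZT8 replicate 3 the ZT8 ratio was 0.59 and passed (adjusted p 0.0158), as it did without IRLWT ZT12 replicate 2 (0.47, 0.0343) or replicate 5 (0.47, 0.0204), with quantile normalization (0.50, 0.0255), in the authors' processed values (0.53, 0.0175), with slide as a fixed block (0.50, 0.0259) and with array weights (0.54, 0.00906). Without IRLWT ZT12 replicate 5 the ZT12 ratio also passed (-0.42, 0.0491). Within wash batches the ZT16 ratio ran from -1.08 to -0.407. The probe whose genomic span is longer than its 60 bases (correlation 0.910) had ratios of 0.27, -0.34 and -0.73, with the last called. The 3 others that were fitted, correlated at 0.714, 0.587 and 0.611, gave ZT16 ratios of -0.62, -0.40 and -0.18 with none called, and 1 more probe lacked a value on 1 array and was not fitted. The probe correlated at 0.611 was above background on only 25 of the 36 arrays. At ZT16 these were 2 of 6 IRLWT and 3 of 6 IRLKO samples, so its ratio there lies near background and sets no size.

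Probes whose genomic span is longer than their 60 bases read spliced RNA. A Mogat2 probe of that kind, with a span of 5886 bases, was above background on 1 array and is not shown. The Lpin2 probe of that kind spans 367 bases and the Dgat1 probe 147, and both are shown here, 5′ to 3′, with a Mogat1 probe that was above background on no array. No part of these is marked.
Lpin2, chr17:71595823-71596189, plus strand: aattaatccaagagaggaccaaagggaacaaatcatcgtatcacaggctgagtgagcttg
Dgat1, chr15:76333128-76333274, minus strand: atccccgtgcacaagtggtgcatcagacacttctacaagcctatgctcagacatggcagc
Mogat1, chr1:78519298-78519357, plus strand: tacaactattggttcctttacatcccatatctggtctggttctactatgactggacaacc

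Lpin2 has 3 upstream windows in RefSeq, since its transcripts have different starts, and they differ in what they hold. The first (chr17:71183282-71183531, plus strand) has an E-box 9 to 4 bases before the start. The last (chr17:71204404-71204653, plus strand) has 3 CCAAT boxes and a FoxO element 138 to 132 bases before the start. Which start was used in these livers was not measured. The matches are in capitals.
Lpin2, first start: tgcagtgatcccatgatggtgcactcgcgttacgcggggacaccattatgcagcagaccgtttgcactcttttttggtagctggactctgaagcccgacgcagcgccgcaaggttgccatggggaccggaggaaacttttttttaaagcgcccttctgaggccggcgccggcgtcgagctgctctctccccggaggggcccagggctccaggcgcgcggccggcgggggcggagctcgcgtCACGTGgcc
Lpin2, last start: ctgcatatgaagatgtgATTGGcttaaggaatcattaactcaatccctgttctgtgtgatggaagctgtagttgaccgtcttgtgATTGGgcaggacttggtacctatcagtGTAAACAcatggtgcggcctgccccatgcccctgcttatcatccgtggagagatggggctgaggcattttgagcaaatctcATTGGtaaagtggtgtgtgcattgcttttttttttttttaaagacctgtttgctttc

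The ratio of Lpin3 rose from ZT8 to ZT16. IRLWT signal (probe at chr2:160731469-160731528, plus strand) was -0.45 to 0.09 (median -0.20) at ZT8, then -1.12 to -0.45 (median -0.65) at ZT12 and -1.08 to -0.83 by ZT16. IRLKO signal was -1.50 to -0.62 (median -1.27) at ZT8, then -1.60 to -0.85 (median -1.41) at ZT12 and -1.31 to -0.46 (median -0.75) by ZT16. The genotypes did not overlap at ZT8, 4 of the 6 IRLKO samples lay below all IRLWT samples at ZT12, and 4 of 6 lay above them all at ZT16. In the fit the log2 ratio was -1.03 ± 0.13 (ZT8), -0.56 ± 0.13 (ZT12) and 0.15 ± 0.13 (ZT16), called at ZT8 and ZT12 (adjusted p 5.1e-07, 0.00124 and 0.406). Within wash batches these 2 ran from -1.31 to -0.650 and from -0.564 to -0.517. Its second probe was above background on 6 arrays only, correlated with the first at -0.149 and was called at no time.

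**Figure D3:**
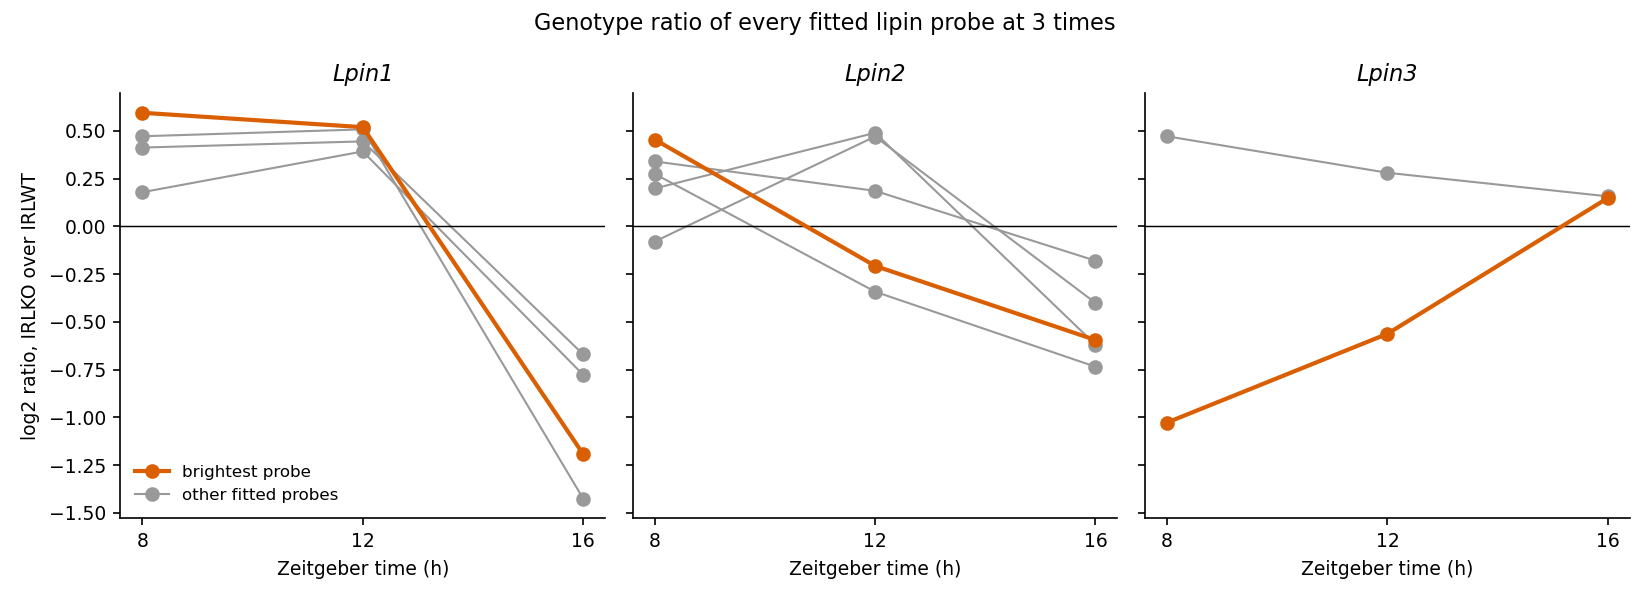
Log2 ratio of IRLKO to IRLWT (vertical axis) at ZT8, ZT12 and ZT16 (horizontal axis, hours) for every fitted probe of Lpin1, Lpin2 and Lpin3; the thick orange line is the brightest probe and grey lines are the others. All 4 Lpin1 probes and all 5 Lpin2 probes are below 0 at ZT16, and the brightest Lpin3 probe climbs from -1.03 to 0.15. The dimmest of these Lpin2 probes was above background on 25 of the 36 arrays.

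Of the 2 diacylglycerol acyltransferases, Dgat2 was lower in IRLKO at all 3 times and Dgat1 was called at none. Dgat2, the one tied to newly made fatty acids, had IRLWT signal (probe at chr7:106302215-106302274, minus strand) of 7.22 to 7.57 (median 7.50) at ZT8, then 7.47 to 7.86 (median 7.61) at ZT12 and 7.45 to 7.80 (median 7.63) by ZT16. Its IRLKO signal was 5.68 to 6.74 (median 6.42) at ZT8, then 6.10 to 6.67 (median 6.36) at ZT12 and 5.81 to 6.41 (median 6.33) by ZT16. The genotypes did not overlap at any time. The log2 ratio was -1.09 ± 0.13 (ZT8), -1.25 ± 0.13 (ZT12) and -1.36 ± 0.13 (ZT16), which is 46.9%, 42.1% and 39.0% of IRLWT (adjusted p 1.1e-07, 7.0e-09 and 1.3e-09). Within wash batches it ran from -1.44 to -0.782, from -1.59 to -1.13 and from -1.65 to -1.21. The lowest samples were IRLKO ZT8 replicate 3 at 5.68 and IRLKO ZT16 replicate 6 at 5.81, and without the first the ZT8 ratio was -0.96. Dgat2 was not called between times in either genotype; from ZT8 to ZT16 it moved by 0.17 in IRLWT (adjusted p 0.370) and by -0.09 in IRLKO (0.652). Dgat1, which also esterifies retinol (probe at chr15:76333128-76333274, minus strand), had IRLWT signal of 0.25 to 0.57 (median 0.48) at ZT8, then 0.25 to 0.56 (median 0.41) at ZT12 and 0.09 to 0.56 (median 0.45) by ZT16. Its IRLKO signal was -0.01 to 0.52 (median 0.35) at ZT8, then 0.20 to 0.68 (median 0.47) at ZT12 and 0.25 to 0.57 (median 0.37) by ZT16, overlapping IRLWT throughout. The log2 ratio of Dgat1 was -0.10 ± 0.09 (ZT8), 0.06 ± 0.09 (ZT12) and 0.02 ± 0.09 (ZT16) (adjusted p 0.428, 0.676 and 0.916), with 95% intervals of -0.30 to 0.09, -0.14 to 0.25 and -0.18 to 0.21. These intervals do not reach a fall of the size measured for Dgat2, though smaller changes lie within them; the difference between both ratios was not tested. Each of the pair is read by 1 probe.

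The monoacylglycerol acyltransferases had signals below the 75th percentile of the arrays. Mogat1, known to rise in fatty liver, had IRLWT signal (probe at chr1:78534646-78534705, plus strand) of -3.61 to -2.29 (median -2.80) at ZT8, then -2.97 to -1.42 (median -2.20) at ZT12 and -2.86 to -2.08 (median -2.25) by ZT16. Its IRLKO signal was -4.09 to -3.27 (median -3.70) at ZT8, then -4.03 to -3.23 (median -3.39) at ZT12 and -3.51 to -2.35 (median -3.05) by ZT16. The genotypes did not overlap at ZT12, and at ZT8 and ZT16 4 of the 6 IRLKO samples lay below all IRLWT samples. The log2 ratio was -0.92 ± 0.22 (ZT8), -1.31 ± 0.22 (ZT12) and -0.68 ± 0.22 (ZT16), or 53.0%, 40.4% and 62.4% of IRLWT (adjusted p 0.00131, 1.5e-05 and 0.0128). Within wash batches they ran from -1.18 to -0.831, from -1.99 to -0.737 and from -0.777 to -0.381. These sizes depend on the processing. Normexp correction gave -0.38, -0.69 and -0.41, all still called, and the authors' processed values gave -0.56 at ZT8 and -0.84 at ZT12. The normexp setting adds an offset of 50 to every signal, which by itself shrinks the ratios of dim probes. The parts of offset and background were not separated. The other 2 Mogat1 probes, 1 of which has its sequence printed here, were above background on no array. Mogat2, the intestinal isoenzyme (probe at chr7:106367601-106367660, minus strand), had IRLWT signal of -2.77 to -1.35 (median -2.58) at ZT8, then -2.87 to -1.92 (median -2.43) at ZT12 and -2.35 to -1.81 (median -2.14) by ZT16. Its IRLKO signal was -3.68 to -1.29 (median -2.83) at ZT8, then -4.10 to -2.64 (median -3.61) at ZT12 and -3.71 to -1.81 (median -3.02) by ZT16. At ZT12 5 of the 6 IRLKO samples lay below all IRLWT samples. The log2 ratio was -0.58 ± 0.29 (ZT8), -1.01 ± 0.29 (ZT12) and -0.62 ± 0.29 (ZT16), called at ZT12 only (adjusted p 0.125, 0.00597 and 0.0918), where the wash batches gave -1.49 to -0.228, normexp correction -0.51 and the authors' processed values -0.59. The ZT16 value passed with normexp correction (-0.36, adjusted p 0.0381) and with slide as a fixed block (-0.71, 0.0274), and the ZT8 value without IRLKO ZT8 replicate 1 (-0.81, 0.0201). A second Mogat2 probe was above background on 1 array.

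The change of the genotype ratio with time was tested next. A moderated F test over the 3 times called 4 of the 10 genes, Agpat2 (adjusted p 0.0396), Lpin1 (0.0480), Lpin2 (0.0321) and Lpin3 (5.3e-04), where 7.89% of all genes were called; Gpam stood at 0.0675. The F test of Gpam passed without IRLKO ZT8 replicate 3 (adjusted p 0.0328), without IRLWT ZT12 replicate 1 (0.0360) or replicate 5 (0.0147), with array weights (0.0262), with no wash batch term (0.0467) and with only probes above background on all arrays (0.0490). Of the called F tests, that of Agpat2 was lost under 4 of 13 alternatives and without any of 21 arrays. That of Lpin1 was lost under 3 alternatives and without any of 27 arrays. That of Lpin2 was lost under 2 alternatives and without any of 7 arrays. Median scaling and no filter on dim probes each removed the F-test calls of Agpat2, Lpin1 and Lpin2. Only Lpin3 kept its F-test call throughout. From ZT8 to ZT16 the ratio rose by 0.41 ± 0.12 for Agpat2 (adjusted p 0.0314) and by 1.18 ± 0.19 for Lpin3 (1.4e-04). It changed by -1.79 ± 0.55 for Lpin1 (0.0363) and by -1.05 ± 0.27 for Lpin2 (0.0109). These 4 of 10 genes stand beside 9.34% of all genes called in that comparison. From ZT12 to ZT16 only Lpin3 was called, with a rise of 0.71 ± 0.19 (adjusted p 0.0477), beside 1.69% of all genes. From ZT8 to ZT12 limma called none of the 10, beside 1.07% of all genes, with 3 at an unadjusted p under 0.05. The Gpam ratio changed by -1.06 ± 0.30 over those hours (adjusted p 0.0880), and passed without IRLKO ZT8 replicate 3 (-1.16, 0.0315), without IRLWT ZT12 replicate 5 (-1.27, 0.0333) and with array weights (-1.12, 0.0324).

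Of these differences, those of Lpin2 and Lpin3 from ZT8 to ZT16 kept their call under all alternatives and without any single array. That of Agpat2 was lost with median scaling (0.38, adjusted p 0.135), with no filter on dim probes (0.41, 0.0664) and without any of 4 arrays, IRLKO ZT16 replicate 2 (0.38) and replicate 4 (0.40), IRLKO ZT8 replicate 6 (0.38) and IRLWT ZT8 replicate 6 (0.35). That of Lpin1 was lost with median scaling (-1.81, 0.0540), no filter (-1.79, 0.0640), slide as a fixed block (-1.73, 0.0629) and without any of 12 arrays, among them IRLKO ZT16 replicate 6 (-1.46, 0.0551). The Lpin3 difference from ZT12 to ZT16 was lost in 6 alternatives and without any of 26 arrays. The second Agpat2 probe did not pass the F test (adjusted p 0.415), and of the other Lpin1 and Lpin2 probes 1 each passed from ZT8 to ZT16, at -1.90 (adjusted p 0.0379) and -1.01 (0.0138).

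Within a genotype, the times were compared over samples that the comparisons above also use. In IRLWT from ZT8 to ZT12, 3 of the 10 genes were called, beside 14.4% of all genes: Agpat2 and Mogat1 (0.64 ± 0.21, adjusted p 0.0438) rose, and Lpin3 fell by 0.52 (0.00732). The Mogat1 rise was lost under 6 alternatives and without any of 8 arrays. Without IRLWT ZT12 replicate 5 it was 0.42 (adjusted p 0.169). Lpin1 had a rise of 1.06 that missed the threshold (adjusted p 0.0646), and none of its other probes was called. The rise passed with array weights (0.0149), only the groups compared (0.0360), only probes above background on all arrays (0.0491) and without some single arrays. From ZT12 to ZT16 in IRLWT limma called none of the 10, beside 3.32% of all genes, with 3 at an unadjusted p under 0.05 in the fit and 2 in the exact permutation test. Lpin2 (-0.63, adjusted p 0.0613) passed without IRLKO ZT8 replicate 3 (-0.62, 0.0450), under 3 alternatives and without any of 3 other arrays. Without 1 of these, IRLWT ZT12 replicate 5, Lpin2 (-0.83, 0.00466) and Gpam (-0.78, 0.0352) both passed. From ZT8 to ZT16 in IRLWT, Agpat2 rose by 0.69 (adjusted p 3.6e-07) and Lpin3 fell by 0.81 (2.4e-05), 2 of 10 beside 26.2% of all genes. Lpin2 samples of those times did not overlap in IRLWT either, with a difference of -0.46 that missed the threshold (0.0723) and passed under 5 alternatives and without either of 2 arrays. The Lpin2 probes correlated at 0.714 and 0.587 were called over those times (-0.91, adjusted p 0.0289, and -0.65, 0.0456). Both were also called falling from ZT8 to ZT12 (-1.01, 0.0250, and -0.83, 0.0182), where the brightest probe gave 0.17 (0.623). The remaining fitted Lpin2 probes were called in neither comparison.

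In IRLKO from ZT8 to ZT12, Agpat2 rose and Gpam fell by 0.68 (adjusted p 0.0367), 2 of 10 beside 12.7% of all genes. The Gpam fall was lost under 4 alternatives and without any of 6 arrays; without IRLKO ZT8 replicate 2 it was -0.54 (adjusted p 0.130). Lpin2 and Agpat3 were also called when IRLKO ZT8 replicate 3 was left out (-0.62, adjusted p 0.0221, and -0.24, 0.0316). The second Agpat3 probe was called in the main fit (-0.33, adjusted p 0.0169). Lpin1 had a rise of 0.98 that was not called (adjusted p 0.105). It passed with array weights (0.0441) and without IRLKO ZT12 replicate 6 (1.31, 0.0307). From ZT12 to ZT16, 4 of 10 were called beside 12.1% of all genes: Lpin1 fell by 1.96 (8.5e-04) and Lpin2 by 1.02 (4.1e-04), and Agpat2 and Lpin3 (0.42, 0.0381) rose. The Lpin1 fall was lost with only the groups compared in the fit (-1.89, adjusted p 0.0533), and the Lpin3 rise under 6 alternatives and without any of 8 arrays. From ZT8 to ZT16, 5 of 10 were called beside 28.7% of all genes. Lpin1 was not among them (-0.97, adjusted p 0.0573). Its probes correlated at 0.884 and 0.828 were called (-0.93, 0.0161, and -0.99, 0.0211), and the remaining one was not. Gpam fell by 0.71 (0.0110) and Lpin2 by 1.51 (3.4e-07), while Agpat2 rose to 214% of its ZT8 signal (8.5e-11), Mogat1 by 0.76 (0.00745) and Lpin3 by 0.36 (0.0406). The Mogat1 rise shrank to 0.23 with normexp correction (adjusted p 0.152) and to 0.35 in the authors' processed values (0.0545), and the Lpin3 rise was lost under 7 alternatives and without any of 7 arrays. Dgat1 and Dgat2 were called in none of these 6 comparisons of times, and Mogat2 was not either.

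For the 4 genes lower at all 3 times, the genes whose wash-corrected signal followed theirs most closely over the 36 arrays were found among 17801 others that were above background on every array. Gpam was closest to Idh1 (Pearson r 0.942), D130043K22Rik (0.931) and Ebpl (0.928). Agpat2 was closest to Loh12cr1 (0.959), a transcript named in the files only by its position (0.955) and Sppl2b (0.950). Dgat2 was closest to another such transcript (0.978), Esd (0.977) and Park7 (0.976), and Mogat1 to Rexo2 (0.913), Mien1 (0.893) and Mrap (0.893). Idh1 encodes the cytosolic isocitrate dehydrogenase, a source of NADPH. The arrays share genotype, time and batch, so these values describe a common pattern and carry no test.

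Other genes of the pathway were described in 4 lists. Their counts stand beside 18.5%, 22.4% and 19.8% of all genes called lower at ZT8, ZT12 and ZT16. The shares of all genes called higher were 16.5%, 19.2% and 19.6%. Of 14 genes that supply glycerol 3-phosphate and acyl-CoA, 12 were fitted (not Aqp3 and Acsl6), and 5, 5 and 4 were called lower and 3, 1 and 3 higher in IRLKO at ZT8, ZT12 and ZT16. Lower at all times were Gpd1, which makes glycerol 3-phosphate (log2 ratios -0.60, -1.07 and -0.54), and the acyl-CoA synthetases Acsl5 (-0.80, -0.71 and -1.11) and Acsl1 (-0.50, -0.82 and -0.98). Acsl4, the synthetase that prefers arachidonate, was higher (0.89, 0.64 and 0.56; adjusted p 5.0e-04, 0.00834 and 0.0202). The list's medians of -0.02, -0.14 and -0.08 lay near those of all genes. At ZT8 its 8 calls fell to 5 without IRLKO ZT8 replicate 3, where Acsl1 was -0.28 (adjusted p 0.0755), and to 4 with only the groups compared in the fit. The ZT16 call of Acsl4 was lost with median scaling (0.47, adjusted p 0.0533), array weights (0.33, 0.0834), only the groups compared (0.54, 0.106), without IRLKO ZT16 replicate 6 (0.36, 0.0681) and without IRLWT ZT16 replicate 6 (0.44, 0.0797).

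Of 15 other acyltransferases, phosphatases and partners of lipid storage, all fitted, 4, 4 and 6 were lower and 3, 3 and 3 higher. Fitm1, a fat storage-inducing membrane protein, had log2 ratios of -3.00, -3.56 and -3.17 (adjusted p 1.3e-07, 4.3e-09 and 3.5e-08), which normexp correction brought to -1.87, -2.28 and -2.01; its probe was above background on 35 of the 36 arrays. Bscl2, which encodes seipin of lipid droplet formation, was lower (-0.78, -0.88 and -0.81), and the phosphatase Plpp2 (0.47, 0.58 and 0.70) and the acyltransferase Agpat4 (0.49, 0.57 and 0.48) were higher. The medians of this list were -0.10, -0.07 and -0.14.

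In the phospholipid branch, 16 of 18 genes were fitted (not Cds1 and Pcyt1b), and 8, 8 and 6 were lower and 2, 2 and 2 higher, with medians of -0.17, -0.21 and -0.17. Chpt1, which makes phosphatidylcholine from diacylglycerol, had ratios of -0.98, -1.11 and -1.61, Pcyt2, of the ethanolamine route, of -0.57, -0.56 and -0.49, and Ptdss1, a phosphatidylserine synthase, of -0.37, -0.61 and -0.66. Cds2, which draws phosphatidic acid away from the lipins, was higher (0.41, 0.65 and 0.81). Of 8 transcriptional regulators, 2, 5 and 4 were lower and 1, 1 and 1 higher, with medians of -0.11, -0.38 and -0.38. Srebf1 had ratios of -1.80, -1.48 and -1.12, the glucocorticoid receptor gene Nr3c1 of -0.38, -0.56 and -0.67 and the coactivator gene Ppargc1a of 2.19, 2.20 and 1.89. The files name Gk, Gpat3 and Gpat4 as Gyk, Agpat9 and Agpat6, and Plpp2 as Ppap2c.

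**Figure D4:**
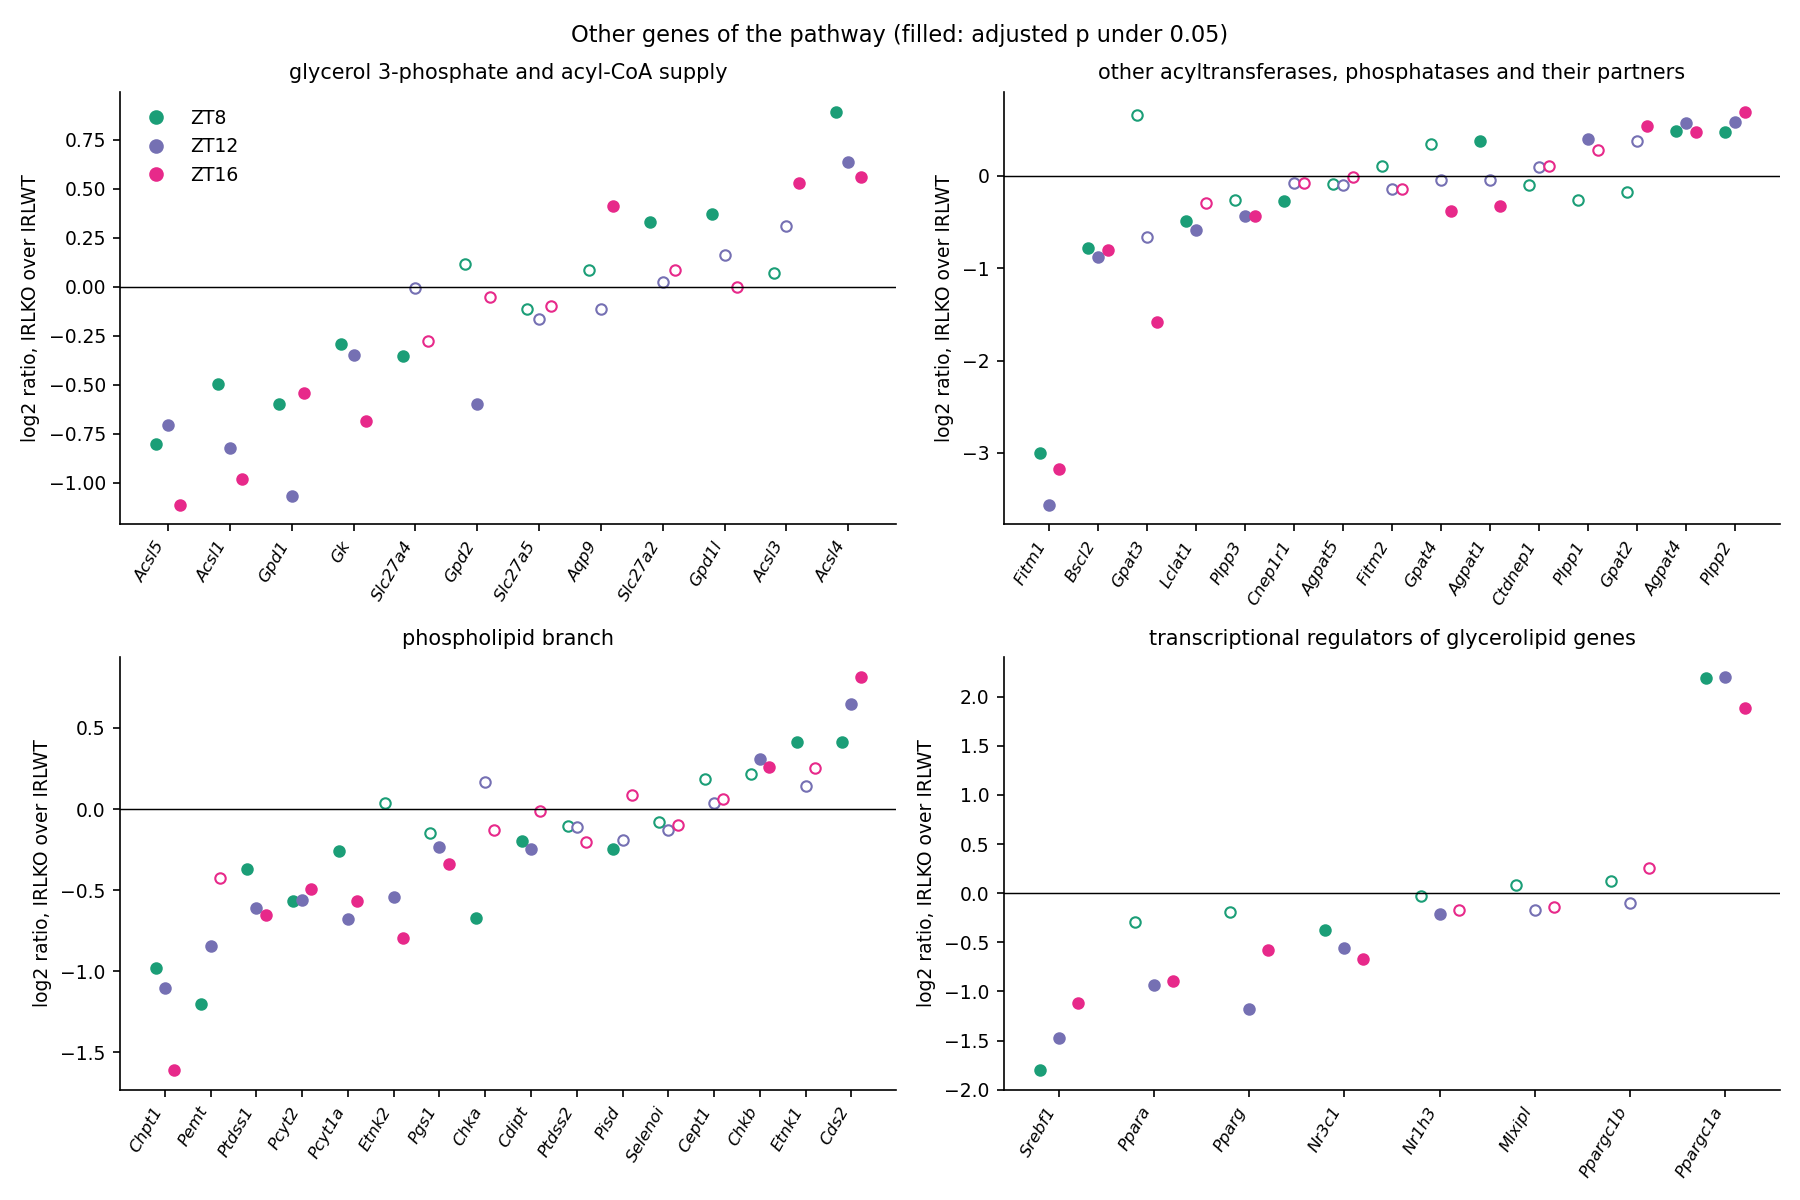
Log2 ratio of IRLKO to IRLWT (vertical axis) for each fitted gene of the 4 lists (horizontal axis, ordered by mean ratio) at ZT8, ZT12 and ZT16; filled points have an adjusted p under 0.05. Fitm1 (-3.00, -3.56 and -3.17) is the lowest gene of its panel and Ppargc1a (2.19, 2.20 and 1.89) the highest of its own; the vertical axes differ between panels.

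Some markers of cell types were called between genotypes as well. Beside their counts, 18.5%, 22.4% and 19.8% of all genes were called lower and 16.5%, 19.2% and 19.6% higher. Counts of 0 or 1 of 6 lie near or under these shares. Of 6 markers each, macrophage genes were higher in 1, 4 and 1 at ZT8, ZT12 and ZT16 and lower in none, and endothelial genes higher in 0, 5 and 4. The mean log2 signal of the macrophage list ran from 1.85 to 3.53 in IRLWT and from 2.94 to 4.36 in IRLKO at ZT12, and that of the endothelial list from 0.689 to 1.02 and from 1.11 to 1.76. The macrophage mean ran from 2.20 to 3.16 and from 2.65 to 4.17 at ZT8. By ZT16 it ran from 2.16 to 3.88 and from 3.07 to 4.69. The endothelial mean ran from 0.892 to 1.18 and from 0.747 to 1.35 at ZT8. By ZT16 it ran from 0.792 to 1.46 and from 1.46 to 1.55. Hepatocyte markers were lower in 2, 4 and 2 of 6, with 1 higher at ZT12, and their mean ran from 8.50 to 8.75 in IRLWT and from 8.16 to 8.56 in IRLKO at ZT12. At ZT8 the hepatocyte mean ran from 8.35 to 8.57 in IRLWT and from 7.95 to 8.42 in IRLKO. At ZT16 it ran from 8.57 to 8.72 and from 8.39 to 8.48. Ttr, whose promoter drives Cre, is in this list. It was among the lower genes at each time and is part of that mean. Alb had ratios of -0.41, -0.35 and -0.39. Adipocyte markers were lower in 1, 3 and 2 of 6. Adipoq was above background on 9 arrays, Plin1 on 16 and Cfd on 14, and of these Cfd was called lower at each time. Signal not above background sets no level. The ratios of Cfd, and the list mean that includes these genes, are therefore not given. Of the enterocyte markers Fabp2 was lower (-3.16, -3.66 and -3.33), Vil1 higher (above background on 18 arrays, ratios not given) and Apoa4 lower at ZT16, and Cdh17, Lct and Si did not pass the filter. Of the other lists, 0, 1 and 1 of 6 stellate cell and fibroblast genes (Dcn) and 0, 0 and 1 of 6 bile duct genes (Sox9) were higher, and 0, 1 and 0 bile duct genes (Spp1) lower; of 4 fitted muscle genes Tnni2 was higher at each time and Mylpf lower at ZT12. The part of these marker differences in the ratios of the 10 genes was not tested.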

How the data were processed

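Liver RNA of 36 samples was hybridised to 1-colour Agilent arrays. Spot intensity was extracted with Agilent Feature Extraction 10.10.1.1, per the file headers, with the local background subtracted and spatial trends removed within each array. Other deposited columns flag each spot with 0 or 1 as saturated, as an outlier or as clearly brighter than its background, per the file headers. The authors also deposited a table of log2 values, made with limma per the submitters' processing notes; its columns share identical sorted values, as quantile normalization gives, and its other steps are not given in the sources used here. It served as an alternative.

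Here, the log2 of the processed intensity was centred on the 75th percentile of each array's non-control spots. Outlier spots were left out, and no non-control spot was saturated. Of 56605 probes, 34771 exceeded background on 6 arrays or more; 93 had a missing value and 34678 were fitted with limma 3.58.1 in R 4.3.3, with 6 groups and the wash batch that the labels name (28 residual degrees of freedom). Each of the 3 wash batches held 11 to 13 arrays of all 6 groups. Adjusted p-values are Benjamini-Hochberg over all fitted probes within a comparison. The brightest probe on average stood for its gene. Exact permutation tests are two-sided. The script was tested on simulated data. Alternatives were normexp (offset 50), quantile and median scaling, the authors' table, 2 other filters, outlier spots kept, other blocks or none, array weights, only the groups compared, and each array left out.

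Named were all members, Insr, the genes of each list called the same way at all 3 times with the 3 highest and 3 lowest mean ratios, the 3 genes most correlated with each member called the same way throughout, and called markers. The number of arrays above background of 2 further markers is given too. List genes under other observations were named after their values were seen. The members and lists were chosen with earlier results of these data known. Probe positions are those of the files, build mm9; exon and UTR locations were not analysed here.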

Additional observations from a re-analysis of the deposited data

Results flagged for a closer look

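In 3 of the 60 sets of 6 samples (10 genes in 6 groups), 1 sample lay apart from the other 5 by more than Dixon's 95% limit; chance alone gives about 1 set in 20. Agpat3 signal was 5.46 in IRLKO ZT16 replicate 1, against 5.64 to 5.70 in the others. Dgat2 signal was 5.81 in IRLKO ZT16 replicate 6, against 6.23 to 6.41. Mogat1 signal was -2.86 in IRLWT ZT16 replicate 3, against -2.37 to -2.08.

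The log2 ratio of IRLKO to IRLWT differed between times, by the test of the difference itself, for 4 genes. From ZT8 to ZT16 it changed by 0.41 for Agpat2, -1.79 for Lpin1, -1.05 for Lpin2 and 1.18 for Lpin3. From ZT12 to ZT16 it changed by 0.71 for Lpin3.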

How the results depend on the processing

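The members' ratios between genotypes kept their direction and side of the threshold in 407 of 420 values under 14 alternatives, with 3 calls lost and 10 gained, and in 1073 of 1080 values with 1 array left out, with 2 lost and 5 gained; a change of sign in a value called in neither setting was counted as kept. No called value changed sign. Counts of members called between times, or with a ratio that differed between times, moved more. From ZT12 to ZT16 the genotype effect was called for 0 members with quantile normalization, median scaling, no filter, no wash batch term or slide as a fixed block. From ZT8 to ZT16 it was called for 2 with median scaling or no filter, and the F test then called 1, and 2 with slide as a fixed block. From ZT8 to ZT12 it was called for 1 with array weights. In IRLWT from ZT12 to ZT16, 1 was called with probes above background on all arrays, slide as a fixed block or array weights, and from ZT8 to ZT16 4 with slide, array weights or only the groups compared. In IRLKO from ZT8 to ZT12, 1 was called with median scaling, no filter or only the groups compared, and 4 with array weights; from ZT12 to ZT16 2 with only the groups compared; and from ZT8 to ZT16 3 in the authors' table. The supply list at ZT8 had 4 calls with only the groups compared. The cause was not tested.

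With 1 array left out, the count ran from 0 to 2 in IRLWT from ZT12 to ZT16, 2 to 4 from ZT8 to ZT16, and 1 to 4 in IRLKO from ZT8 to ZT12. For the genotype effect it ran from 0 to 1 from ZT8 to ZT12, 0 to 1 from ZT12 to ZT16 and 2 to 4 from ZT8 to ZT16, from 1 to 5 for the F test, and from 5 to 8 for the supply list at ZT8.

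Deviations of same-numbered samples of different groups correlated at -0.322 to 0.195 (median -0.00674, 90 pairs), with 15 pairs over 0.1. Of the arrays, 7 correlated best with their own number. The labels do not say whether the numbers pair samples, and low correlations cannot settle it. With the number as a replicate block, 1 member was called in IRLKO from ZT8 to ZT12 and 0 for the genotype effect from ZT12 to ZT16. Mogat1 and Mogat2 are read by dim probes, which limits the sizes given. Their ratios shrank with normexp correction, whose offset of 50 by itself shrinks dim ratios.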

Other observations

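Some genes of the lists also had a genotype ratio that differed between ZT8 and ZT16, where 9.34% of all genes were called. They were 3 of 15 other acyltransferases, phosphatases and partners and 3 of 16 phospholipid genes, with 0 of 12 supply genes and 0 of 8 regulators. Counts this small are not read as a result about the lists. The genes were singled out after their values were seen, and these changes were not run under the alternatives. Among other enzymes of the first acylations, the change was -2.25 for Gpat3 (adjusted p 0.0158), -0.73 for Gpat4 (0.0169) and -0.71 for Agpat1 (0.00255), by limma. At ZT16 their log2 ratios of IRLKO to IRLWT were -1.59, -0.38 and -0.33. In the phospholipid branch the change was 0.40 for Cds2 (0.0413), -0.83 for Etnk2, an ethanolamine kinase (0.0361), and -0.63 for Chpt1 (0.0254). In the supply list and among the regulators limma called no gene for this change, with 4 and 3 genes at an unadjusted p under 0.05.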
